A study of Homo sapiens with 12 samples.

Results

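Klotho and the vitamin D axis were followed through 6 genes, chosen by symbol, of the 58278 genes listed in every library of the series. KL encodes klotho, the co-receptor that lets FGF23 bind its receptor, and FGFR1 encodes that receptor. CYP27B1 makes the active hormone 1,25-dihydroxyvitamin D, CYP24A1 breaks it down, VDR encodes the nuclear receptor that binds it, and RXRA encodes the receptor's main dimer partner. All 6 genes passed the filter on low counts.

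The cells were HK2, an immortalised line of human proximal tubular epithelial cells, so every library came from 1 line grown in medium with serum and hydrocortisone. Untreated cells formed the group Ctrl, and the group TN received TNF-α (5 ng/mL, 3 h). In the other groups, cells received the same TNF-α and a short-chain fatty acid (SCFA) for 24 h. Propionate at 15 mM was added before TNF-α (PRTN) or after it (TNPR), and butyrate at 3 mM was added before TNF-α (BUTN) or after it (TNBU). Each group had 2 biological replicates, 12 libraries in all. No group received an SCFA without TNF-α, so the effect of an SCFA alone was not measured, and the labels name no added vitamin D or FGF23. The labels also carry a general note on thapsigargin and JQ1, but the treatments above are those given library by library and were used.

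In the kidney, vitamin D reaches the proximal tubule bound to its carrier protein and is taken up by the endocytic receptors megalin and cubilin. The tubule cell then either activates it with CYP27B1 or inactivates it with CYP24A1, a classical target of the vitamin D receptor. FGF23 acting through FGFR1 and klotho is known to lower CYP27B1 and raise CYP24A1 in this tissue, and to reduce phosphate reabsorption.

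The genes lie on different chromosomes, except for a pair on chromosome 12. In GENCODE release 44 on GRCh38, KL (ENSG00000133116.7) spans chr13:33016423-33066143 on the plus strand, and CYP24A1 (ENSG00000019186.9) spans chr20:54153446-54173986 on the minus strand. CYP27B1 (ENSG00000111012.9) spans chr12:57762334-57768986 and VDR (ENSG00000111424.10) spans chr12:47841537-47943048, both on the minus strand. RXRA (ENSG00000186350.9) spans chr9:134317098-134440585 on the plus strand. CYP27B1 overlaps METTL1 on the same strand, and 3 of its 12 expected counts were not whole numbers, so a few of its reads were shared with other genes. For FGFR1 (ENSG00000077782.19), which 4 annotated genes overlap, 10 of the 12 were not whole, and for the other genes all were.

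With FGFR1 left out of the search, promoters from RefSeq (GRCh38.p14) were found for KL and RXRA only. Each window ran from 250 bases before to 50 bases after a start of transcription. Both are shown, as the promoters of the co-receptor that fell with SCFA and of the receptor partner that was not called. Both are printed 5′ to 3′ on the plus strand, at chr13:33016173-33016472 for KL and at chr9:134326205-134326504 for the first RXRA start, with GC boxes (GGGCGG or its reverse complement) in capitals.
KL: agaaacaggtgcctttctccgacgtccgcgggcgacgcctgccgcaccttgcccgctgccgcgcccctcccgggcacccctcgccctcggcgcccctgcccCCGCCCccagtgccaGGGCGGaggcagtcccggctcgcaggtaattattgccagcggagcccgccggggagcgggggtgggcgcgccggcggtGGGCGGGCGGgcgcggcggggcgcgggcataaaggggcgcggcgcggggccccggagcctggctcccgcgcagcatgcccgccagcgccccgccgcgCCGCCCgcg
RXRA: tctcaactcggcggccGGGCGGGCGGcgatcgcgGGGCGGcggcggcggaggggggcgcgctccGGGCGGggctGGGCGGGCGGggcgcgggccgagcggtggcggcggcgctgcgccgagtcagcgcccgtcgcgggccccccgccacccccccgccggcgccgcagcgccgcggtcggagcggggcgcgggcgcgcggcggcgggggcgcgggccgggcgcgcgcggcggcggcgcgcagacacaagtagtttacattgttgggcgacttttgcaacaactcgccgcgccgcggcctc
Both promoters were rich in G and C, at 81.3% of bases for KL and 84% for RXRA, against a median of 58.7% over 35116 such windows. The KL window held 5 GC boxes and the RXRA window 6, while 45% of all windows held at least 1. A hexamer of the vitamin D response element (AGGTCA, with G also allowed at base 1, T at base 3 and G at base 5, on either strand) occurred once in the RXRA window and was not found in the KL window, and 62.1% of all windows held one. Neither window held 2 such hexamers as a direct repeat spaced by 3 bases, which 0.251% of windows did, nor TATAAA, which 11.5% did. A second RXRA start, at chr9:134379045-134379344, had 64.7% G and C, 1 GC box and 1 hexamer. These matches describe letters only, and binding was not measured.

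Sequencing depth was similar across groups, with 27269986 to 33851130 expected counts per library. Levels are given as CPM, each count relative to its library's total after scaling with TMM factors, and calls needed more than a 1.5-fold change with an adjusted p under 0.05 in limma-voom, using Benjamini-Hochberg adjustment over all 24342 tested genes. The labelled tissue was checked with marker genes. Of the epithelial markers, 6 of 7 were over 1 CPM in every library. Their sum was 1822 to 1883 CPM without SCFA and 2031 to 2622 CPM with it, and KRT18, KRT19 and CDH1 were called up and EPCAM, CDH2 and PAX8 down in all 4 SCFA contrasts with TN. By contrast, 10 of 17 proximal tubule markers stayed under 1 CPM in every library and SLC22A6 was at 0 in all 12. Of 5 fibroblast markers, 4 were called up and DCN down in all 4 SCFA contrasts with TN, and their summed level went from 49.2 to 55.8 CPM over the Ctrl and TN libraries to 200 to 248 CPM over the others. The 4 endothelial markers summed to at most 0.287 CPM without SCFA and to 2.21 to 3.64 CPM with it, and of this list PECAM1, VWF and CDH5 were called up in all 4 SCFA contrasts with TN. The 5 leukocyte markers summed to 30.3 to 35.3 CPM without SCFA and to 25.1 to 49.8 CPM with it, nearly all of it CD68, while the defining markers PTPRC and CD3E did not exceed 0.152 and 0.064 CPM. Of the 3 leukocyte markers tested, 1 was called up against TN in each of PRTN and BUTN and 0 in the other 2 SCFA groups, and 2 were called up against Ctrl in PRTN and 1 in each other SCFA group. The 17 proximal tubule markers summed to 190 to 234 CPM without SCFA and to 85.5 to 107 CPM with it, and most of that sum was GGT1, at 179 to 221 CPM and 60.0 to 74.0 CPM. GGT1 was the 1 marker of that list called down in all 4 SCFA contrasts with TN, while 6 were called up in all 4, among them LRP2 and CUBN. Among all tested genes, 18.4% were called up and 11.9% down in all 4 of these contrasts. The marker changes moved with the same groups as the genes below, and their part in the results was not tested. In bulk RNA, fewer cells that express a gene and less RNA of it per cell cannot be told apart.

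Catabolism of vitamin D came first among the 6 genes. CYP24A1 was the most abundant of them per kilobase of transcript in all 6 groups. Its level was 38.9 and 42.8 CPM in the Ctrl libraries and 63.6 and 65 CPM in the TN libraries. With propionate it reached 401 and 413 CPM in PRTN and 393 and 451 CPM in TNPR. With butyrate it reached 495 and 493 CPM in BUTN and 477 and 453 CPM in TNBU. Every SCFA library thus lay far above every library without SCFA. Against TN, CYP24A1 was 6.33-fold higher in PRTN (95% CI 5.66 to 7.07) and 7.68-fold higher in BUTN (6.88 to 8.58). The fold change was 6.54 in TNPR (5.85 to 7.31) and 7.23 in TNBU (6.46 to 8.08), and the adjusted p of limma-voom was at most 1.69e-10 in all 4. Levels in PRTN and TNPR overlapped, and those in BUTN lay above those in TNBU.

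CYP27B1, the activating enzyme, moved the opposite way at a level near the lower end of detection. It was at 2.30 and 2.19 CPM in Ctrl, 3.28 and 2.69 CPM in TN, and between 1.13 and 1.69 CPM in the 8 SCFA libraries, from 36 to 54 expected counts each. The SCFA libraries lay below all 4 libraries without SCFA. Against TN it fell by 1.17 (SE 0.21) on the log2 scale in PRTN, and by 1.11 (SE 0.21), 1.08 (SE 0.21) and 1.24 (SE 0.23) in BUTN, TNPR and TNBU, with adjusted p of 0.00047, 0.000725, 0.000818 and 0.000438 in limma-voom. Against Ctrl the fall was smaller, from 0.68 in TNPR to 0.84 in TNBU on the log2 scale (adjusted p 0.0203 and 0.00832 in limma-voom). In DESeq2 the calls of CYP27B1 against Ctrl were lost in all 4 SCFA groups, with adjusted p from 0.0627 in TNBU to 0.152 in BUTN. They were also lost in PRTN, BUTN and TNPR without the first Ctrl library, in PRTN without its first library, in BUTN without its second (-0.41 on the log2 scale), and in TNPR without the second Ctrl library or either TNPR library and with library size alone as scaling (-0.56).

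The ratio of catabolic to activating enzyme, compared per kilobase of transcript, separated the libraries with SCFA from those without. Ctrl and TN overlapped in this ratio. CYP24A1 exceeded CYP27B1 by 12.2-fold and 14.2-fold in the Ctrl libraries and by 14.0-fold and 17.5-fold in the TN libraries. In the 8 SCFA libraries the ratio lay between 209 and 317. The numerator rose and the denominator fell in each SCFA group, and no test was run on the ratio itself.

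**Figure D1:**
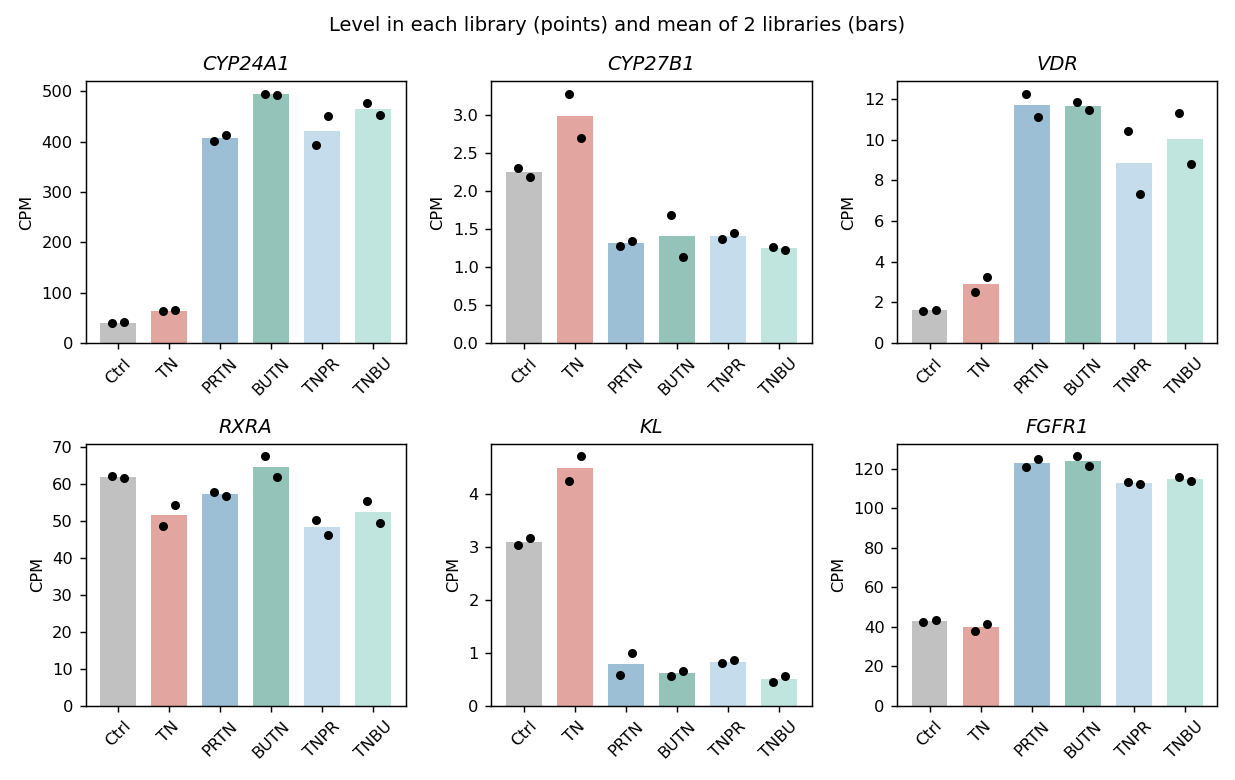
Level of the 6 genes in CPM (vertical axes, linear, from 0) in each of the 12 libraries (points) with the mean of 2 libraries per group (bars). CYP24A1, VDR and FGFR1 are higher in all 8 SCFA libraries than in the 4 libraries of Ctrl and TN, KL and CYP27B1 are lower, and RXRA stays between 46.2 and 67.5 CPM.

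The receptor itself was scarce in untreated cells and rose with both SCFAs. VDR was at 1.58 and 1.65 CPM in Ctrl and at 2.53 and 3.27 CPM in TN. With propionate it was at 12.3 and 11.1 CPM in PRTN and at 10.4 and 7.32 CPM in TNPR. With butyrate it was at 11.9 and 11.5 CPM in BUTN and at 11.3 and 8.80 CPM in TNBU. No SCFA library overlapped TN, and the spread between replicates was widest in TNPR and TNBU. Against TN, VDR was 4.04-fold higher in PRTN (95% CI 2.88 to 5.66) and 4.02-fold in BUTN (2.87 to 5.64). When the SCFA followed TNF-α it was 3.03-fold higher with propionate (2.14 to 4.29) and 3.44-fold with butyrate (2.43 to 4.86), with an adjusted p of at most 6.28e-05 in limma-voom.

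RXRA, the dimer partner, was not called in any comparison. It was at 62.3 and 61.7 CPM in Ctrl and 48.6 and 54.4 CPM in TN, and the SCFA libraries ran from 46.2 CPM in TNPR to 67.5 CPM in BUTN. The groups interleaved, and TN overlapped both TNPR and TNBU. In BUTN the level was 1.26-fold that of TN (95% CI 1.11 to 1.42, adjusted p 0.00408 in limma-voom), under the fold threshold. In TNPR it was 1.07-fold lower than in TN, with a 95% CI of the log2 difference from -0.27 to 0.087, and with library size alone as scaling the difference turned to 0.081. Against Ctrl, RXRA in TNPR fell by 0.36 on the log2 scale (95% CI -0.54 to -0.18, adjusted p 0.0021 in limma-voom), also under the fold threshold.

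VDR and its partner drew closer in level with SCFA. Per kilobase, RXRA exceeded VDR by 32.9-fold and 31.2-fold in Ctrl and by 16.0-fold and 13.9-fold in TN. In the SCFA libraries the excess was 3.93-fold to 5.26-fold. RXRB, a sister of RXRA that can also pair with VDR, was at 75.0 ± 3.01 CPM in Ctrl and 67.4 ± 1.12 CPM in TN (SD, n = 2), and its mean in the SCFA groups was 44.1 to 48.0 CPM. Its log2 change against TN was -0.61 in PRTN (adjusted p 1.48e-05 in limma-voom), where it was called, and -0.53 to -0.49 in the others, where it was not. The PRTN call was lost with library size alone as scaling (-0.46). RXRG, the other member of the family, was at 0 in all 12 libraries, which allows up to 3 counts in each.

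KL, the klotho gene, was low in every group and fell with each SCFA. The counts behind its level were 88 and 88 in Ctrl and 114 and 131 in TN. With propionate they were 20 and 33 before TNF-α and 27 and 27 after it, and with butyrate 18 and 23 before TNF-α and 13 and 17 after it. These corresponded to 3.02 and 3.16 CPM in Ctrl, 4.24 and 4.70 CPM in TN, and 0.455 to 1.00 CPM in the SCFA libraries. All SCFA libraries lay below all others, and the ranges of the 4 SCFA groups overlapped from each group to its neighbour. Against TN, KL was 5.81-fold lower in PRTN and 7.14-fold lower in BUTN, and 5.31-fold lower in TNPR and 8.55-fold lower in TNBU. The 95% CI of the log2 difference ran from -3.06 to -2.01 in PRTN and from -3.72 to -2.47 in TNBU, and the adjusted p was at most 2.28e-06 in limma-voom in all 4. Among all tested genes, 1.61% had a lower log2 fold change than KL in PRTN, 1.82% in TNPR and 0.719% in TNBU. For CYP27B1 this share was 8.57% in TNBU to 11% in TNPR. The other called genes ranked less far out than KL. A higher log2 fold change than that of CYP24A1 was found for 6.83% (BUTN) to 8.27% (PRTN) of tested genes. For VDR this share was 12.7% (PRTN) to 17.3% (TNPR), and for FGFR1 16.2% (PRTN) to 18.5% (TNBU).

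FGFR1, the receptor that klotho converts to FGF23 binding, rose where KL fell. It was at 42.4 and 43.6 CPM in Ctrl and at 37.8 and 41.5 CPM in TN. With an SCFA it lay between 113 and 126 CPM in all 8 libraries, and no SCFA library overlapped the others. Against TN, FGFR1 was higher by 3.10-fold in PRTN (95% CI 2.81 to 3.40) and by 3.12-fold in BUTN (2.84 to 3.44). In the groups treated after TNF-α it was higher by 2.85-fold with propionate (2.59 to 3.13) and by 2.90-fold with butyrate (2.63 to 3.19), with an adjusted p of at most 2.36e-09 in limma-voom. Per kilobase, receptor exceeded co-receptor by 12.3-fold and 12.2-fold in Ctrl and by 7.84-fold and 7.77-fold in TN. With SCFA the excess was 109-fold to 224-fold.

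**Figure D2:**
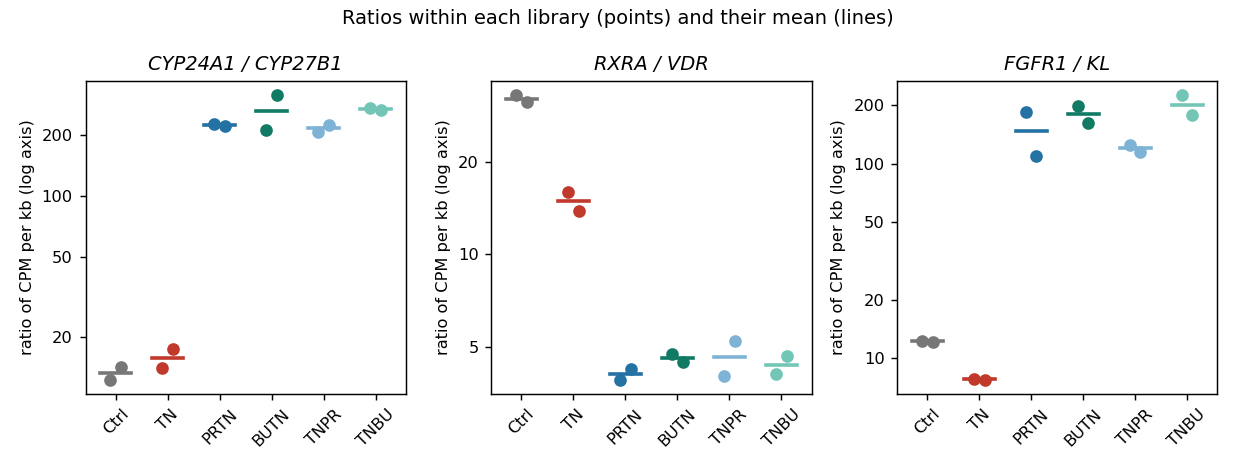
Ratios of levels per kilobase of transcript (log axes) of CYP24A1 to CYP27B1, RXRA to VDR and FGFR1 to KL, in each library (points) with the mean of 2 libraries (lines). In the SCFA libraries the first ratio lies between 209 and 317 and the third between 109 and 224, and RXRA exceeds VDR by 3.93-fold to 5.26-fold, against 13.9-fold or more without SCFA.

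The order of the 6 genes by level per kilobase was the same in Ctrl and TN and the same in the 4 SCFA groups. Without SCFA it ran from CYP24A1 through RXRA, FGFR1, CYP27B1 and KL to VDR, from 12.5 ± 0.83 down to 0.350 ± 0.011 CPM per kb in Ctrl (SD, n = 2). With SCFA it ran from CYP24A1 through FGFR1, RXRA, VDR and CYP27B1 to KL, from 124 ± 2.8 down to 0.158 ± 0.06 CPM per kb in PRTN (SD, n = 2). Neighbours in each order had replicate ranges that did not overlap. FGFR1 thus passed RXRA, and VDR passed both CYP27B1 and KL.

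The contrast of TN with Ctrl asks what TNF-α alone did to the axis. CYP24A1 rose 1.58-fold (95% CI 1.39 to 1.79, adjusted p 0.00113 in limma-voom) and was the 1 of the 6 genes called. Over all tested genes 0.764% were called up and 0.534% down, 1.3% in all. Fitted on the 4 libraries of Ctrl and TN alone, its fold change was much the same (0.67 on the log2 scale), but the adjusted p of limma-voom was 0.0543 and the call was lost. KL, VDR and CYP27B1 were higher in TN than in Ctrl and RXRA and FGFR1 lower, without passing the test. The log2 differences were 0.53 for KL (95% CI 0.16 to 0.90, adjusted p 0.119 in limma-voom), 0.83 for VDR (0.14 to 1.52, adjusted p 0.198 in limma-voom) and 0.40 for CYP27B1 (-0.026 to 0.83, adjusted p 0.329 in limma-voom). They were -0.27 for RXRA (adjusted p 0.103) and -0.12 for FGFR1 (adjusted p 0.435) in limma-voom. In DESeq2, VDR was called as well (0.86 on the log2 scale, adjusted p 0.032).

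The contrasts of the SCFA groups with TN set cells given TNF-α and an SCFA against cells given TNF-α alone. As described, TN had TNF-α for 3 h, while TNPR and TNBU then had 24 h with an SCFA. No group had TNF-α followed by 24 h without an SCFA. In TNPR and TNBU, SCFA and time since TNF-α therefore cannot be told apart. In each of the 4, CYP24A1, VDR and FGFR1 were called up, KL and CYP27B1 were called down, and RXRA was not called. Of all tested genes, PRTN had 40.6% called (23.9% up, 16.7% down) and BUTN 37.9% (23.1% up, 14.8% down). TNPR had 41.8% called (24.9% up, 16.9% down) and TNBU 41.6% (25% up, 16.5% down). The 5 calls of the 6 genes were made in all 4 contrasts, and 18.4% of all tested genes were called up in all 4 and 11.9% down in all 4. The 4 contrasts share the TN libraries, so they are not independent of each other. The 6 genes had a median log2 fold change of 0.71 in TNPR to 0.99 in BUTN, and all tested genes one of 0.079 in BUTN to 0.12 in TNPR.

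Against Ctrl the same 5 genes were called in the same directions in each SCFA group. Of all tested genes, PRTN then had 39.4% called (22.6% up, 16.9% down) and BUTN 36.9% (22% up, 14.9% down). TNPR had 40.4% called (23.6% up, 16.8% down) and TNBU 40% (23.6% up, 16.5% down). CYP24A1 was 9.97-fold (PRTN) to 12.1-fold (BUTN) its level in Ctrl. VDR was 5.40-fold higher in TNPR to 7.18-fold higher in PRTN. KL was 3.67-fold lower in TNPR to 5.91-fold lower in TNBU, so its level with SCFA was also below that of cells without TNF-α.

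**Figure D3:**
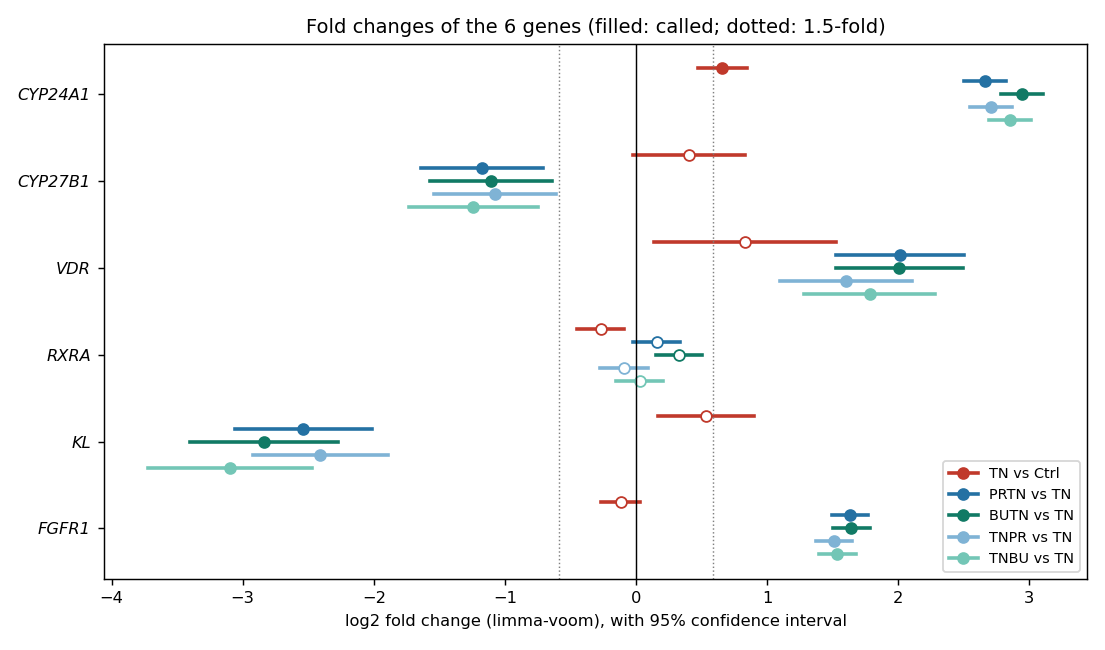
Log2 fold changes of the 6 genes in limma-voom (horizontal axis) with 95% confidence intervals, for TN against Ctrl and for each SCFA group against TN. Filled points are called (over 1.5-fold, dotted lines, and adjusted p under 0.05), CYP24A1 is the one filled point of TN against Ctrl, and for each gene except RXRA all 4 SCFA points are filled.

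Whether the order of SCFA and TNF-α mattered was examined by comparing the later with the earlier addition of each SCFA. Time since TNF-α differed along with the order, so these cannot be told apart. None of the 6 genes was called by limma-voom, edgeR or DESeq2 in either contrast, while limma-voom called 0.16% of all tested genes for propionate (0.0534% up, 0.107% down) and 0.267% for butyrate (0.0945% up, 0.173% down). At an unadjusted p under 0.05, limma-voom gave 2 of the 6 for propionate, VDR and RXRA, and 1 for butyrate, RXRA, while 11.2% and 14.4% of all tested genes passed that limit. VDR in TNPR differed from PRTN by -0.41 on the log2 scale (95% CI -0.75 to -0.074, adjusted p 0.353 in limma-voom). RXRA differed by -0.25 for propionate (-0.42 to -0.073, adjusted p 0.273) and by -0.30 for butyrate (-0.48 to -0.13, adjusted p 0.114) in limma-voom. The interval of KL was wide, from -0.52 to 0.78 for propionate and from -1.03 to 0.51 for butyrate, so smaller changes of KL with timing could not be detected. Replicates also lay furthest apart in TNPR and TNBU. Over tested genes their median absolute log2 difference was 0.194 and 0.222, against 0.113 in PRTN to 0.149 in TN among the other groups. The fit used 1 estimate of the spread for all groups. The difference between these timing effects of propionate and butyrate was called for 0 of the 6 genes by limma-voom, edgeR and DESeq2, and limma-voom gave 0 of them an unadjusted p under 0.05. Over all tested genes, limma-voom called 0% for that difference, edgeR 1 gene and DESeq2 4. Propionate and butyrate were used at different doses, so their levels are given side by side, and no test compared them at either time.

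Around these genes, a list of 14 genes for activation, transport and uptake of vitamin D was described, of which 12 were tested. In the 4 contrasts with TN, 4 to 6 of them were called up and 2 or 3 down, with a median log2 change of 0.42 in TNPR to 0.63 in PRTN. The shares of all tested genes in these contrasts were 23.1% to 25% up and 14.8% to 16.9% down. LRP2 (megalin), CUBN (cubilin) and AMN (amnionless, the membrane anchor of cubilin) were called up in all 4. LRP2 was at 0 in the 4 libraries of Ctrl and TN and had 12 to 31 counts in the SCFA libraries, which set against a floor of 3 counts per library in TN was at least 4.08-fold (PRTN) to at least 7.93-fold (TNBU) higher. CUBN was at 1.28 ± 0.0187 CPM in TN and 2.63 ± 0.532 CPM in TNPR to 3.46 ± 0.253 CPM in TNBU (SD, n = 2). AMN rose by 0.81 to 1.02 on the log2 scale, but its calls were lost in all 4 when the first TN library was left out (0.31 to 0.53). In DESeq2 the calls in PRTN, BUTN and TNPR were lost, and of 21 other settings, 2 (TNBU), 6 (BUTN), 7 (PRTN) and 10 (TNPR) lost the call. Its TN libraries were at 1.15 and 2.28 CPM and its Ctrl libraries at 2.29 and 3.49 CPM. PDIA3, a chaperone also described as a membrane binding protein for the hormone, and NADSYN1, a neighbour of DHCR7 at a vitamin D locus, were called down in all 4, by 0.72 to 0.91 and by 0.59 to 1.06 on the log2 scale. With library size alone as scaling, the calls in TNPR (-0.56 for PDIA3 and -0.42 for NADSYN1) and that of PDIA3 in TNBU (-0.52) fell under the fold threshold, as did that of NADSYN1 in TNPR without the second TN library or the second TNPR library.

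The 25-hydroxylases that precede CYP27B1 were called in some of the contrasts. CYP2R1, the main one, was at 10.9 ± 0.772 CPM in TN and 15.8 ± 1.71 CPM in BUTN to 19.1 ± 0.528 CPM in TNPR (SD, n = 2), and was called up in PRTN, TNPR and TNBU but not in BUTN (log2 change 0.54). In PRTN its log2 change of 0.60 lay next to the fold threshold and was under it in 8 of 21 other settings, the lowest being 0.50 without the second TN library, and in TNBU the call was lost without the second TN library (0.56) or the second TNBU library (0.54). CYP27A1, which also acts in bile acid synthesis, had 10 to 12 counts in each Ctrl and TN library. It was called up in PRTN (1.16 on the log2 scale, adjusted p 0.0159) and BUTN (1.38, adjusted p 0.00547) in limma-voom and not in TNPR (0.073) or TNBU (0.39), and the PRTN call was lost in DESeq2 (adjusted p 0.0956) and without either TN library or the first PRTN library. GC, the carrier protein of vitamin D in blood, was at 0 in the libraries without SCFA and had at most 5 counts in the others, and it did not pass the filter.

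Of 14 RXR partners and VDR cofactors, 13 were tested, 1 or 2 of which were called up and 4 or 5 down in each contrast with TN. The matching shares of all tested genes were 23.1% to 25% up and 14.8% to 16.9% down. For the list, the median log2 change ran from -0.53 in TNPR to -0.44 in PRTN and BUTN. NCOA2 (a p160 coactivator), CREBBP and EP300 (histone acetyltransferases) were called down in all 4, NCOA2 by 1.51 to 1.81, CREBBP by 1.19 to 1.38 and EP300 by 0.86 to 0.98 on the log2 scale. The EP300 call in TNBU was lost without the second TNBU library (-0.56). HDAC3, the deacetylase of the NCOR complexes, was called up in all 4, by 0.75 to 1.09 on the log2 scale. NCOA3, another p160 coactivator named after its values were seen, was called up in PRTN (0.70) and TNPR (0.63), so coactivators of the list moved in both directions.

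Of 18 genes known as targets of vitamin D, 14 were tested, with 6 or 7 called up and 2 or 3 down in each contrast with TN. Among all tested genes, 23.1% to 25% were called up and 14.8% to 16.9% down. The median log2 change of the targets ran from 0.83 in TNPR to 1.54 in TNBU. It ran from 0.11 in TNPR to 0.77 in TNBU with the genes at 0 in TN set to their lower bound or left out where they had none. SLC8A1, a sodium-calcium exchanger, was at 1.36 ± 0.128 CPM in TN and at 15.5 ± 0.188 CPM in TNPR to 16.7 ± 0.543 CPM in BUTN (SD, n = 2). CDKN1A, the cell cycle inhibitor p21, rose from 38.6 ± 0.403 CPM in TN to 230 ± 4.96 CPM in TNPR and 288 ± 1.21 CPM in PRTN. CD14, a co-receptor for lipopolysaccharide, rose by 1.62 to 2.03 on the log2 scale, and IGFBP3 and FBP1 were the other genes called up in all 4, although FBP1, at 0 in TN, had 1 and 6 counts in TNPR. SPP1, encoding osteopontin, fell from 355 ± 7.53 CPM in TN to between 107 and 110 CPM in the SCFA group means, and PTHLH was also called down in all 4. The listed targets thus moved in both directions. The calcium entry channel genes TRPV5 and TRPV6 had at most 2 counts in any library, S100G had none, and these 3 and TNFSF11 did not pass the filter. In TN against Ctrl, 2 of these genes were called, THBD (1.20 on the log2 scale, adjusted p 0.000605) and PTHLH (0.60, adjusted p 0.00179) in limma-voom, both upward and both named here after their values were seen. The share of all tested genes called up there was 0.764%.

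The FGF23-klotho list held 28 genes, 24 of them tested, with 7 to 9 called up and 3 to 5 down in each contrast with TN. Beside these counts, 23.1% to 25% of all tested genes were called up and 14.8% to 16.9% down. The median log2 change ran from 0.028 in TNPR to 0.40 in BUTN, and from -0.12 in TNPR to 0.28 in PRTN with genes at 0 in TN at their bound or left out. FGF23 itself had at most 3 counts in any library and did not pass the filter. FGFR2 moved with FGFR1, from 3.89 ± 0.391 CPM in TN to 28.1 ± 0.738 CPM in BUTN and 34.6 ± 5.23 CPM in TNBU (SD, n = 2), a log2 change of 2.85 to 3.14. FGFR3 and FGFR4 were not called in any of the 4 contrasts, with log2 changes of -0.12 to 0.41 and 0.29 to 0.38. In Ctrl FGFR3 was the most abundant of the 4 receptors per kilobase (18.2 ± 0.089 CPM per kb), and in the SCFA groups FGFR1 was (19.8 ± 0.087 CPM per kb in TNPR to 21.8 ± 0.62 in BUTN).

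KLB encodes the co-receptor for FGF19 and FGF21. Its 2 TN libraries had 65 and 26 counts, its Ctrl libraries 36 and 18, and its SCFA libraries 11 to 32, so few counts stood behind each value. The lower TN library, at 0.933 CPM, lay just above the highest SCFA library, at 0.926 CPM, and Ctrl overlapped both. KLB was called down in TNPR (-1.42 on the log2 scale, adjusted p 0.0321) and not in PRTN (-0.69, adjusted p 0.211), BUTN (-0.82, adjusted p 0.152) or TNBU (-1.22, adjusted p 0.0569) in limma-voom. Its calls depended on the setting and on the TN library left out. Without the first TN library no call was made (log2 changes of -0.78 to -0.055). Without the second TN library the log2 changes were -2.14 to -1.41. The TNPR call was also lost without the second TNPR library, with library size alone, without the filter and with only the groups compared, and TNBU was called in 6 of 21 other settings, among them edgeR.

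**Figure D4:**
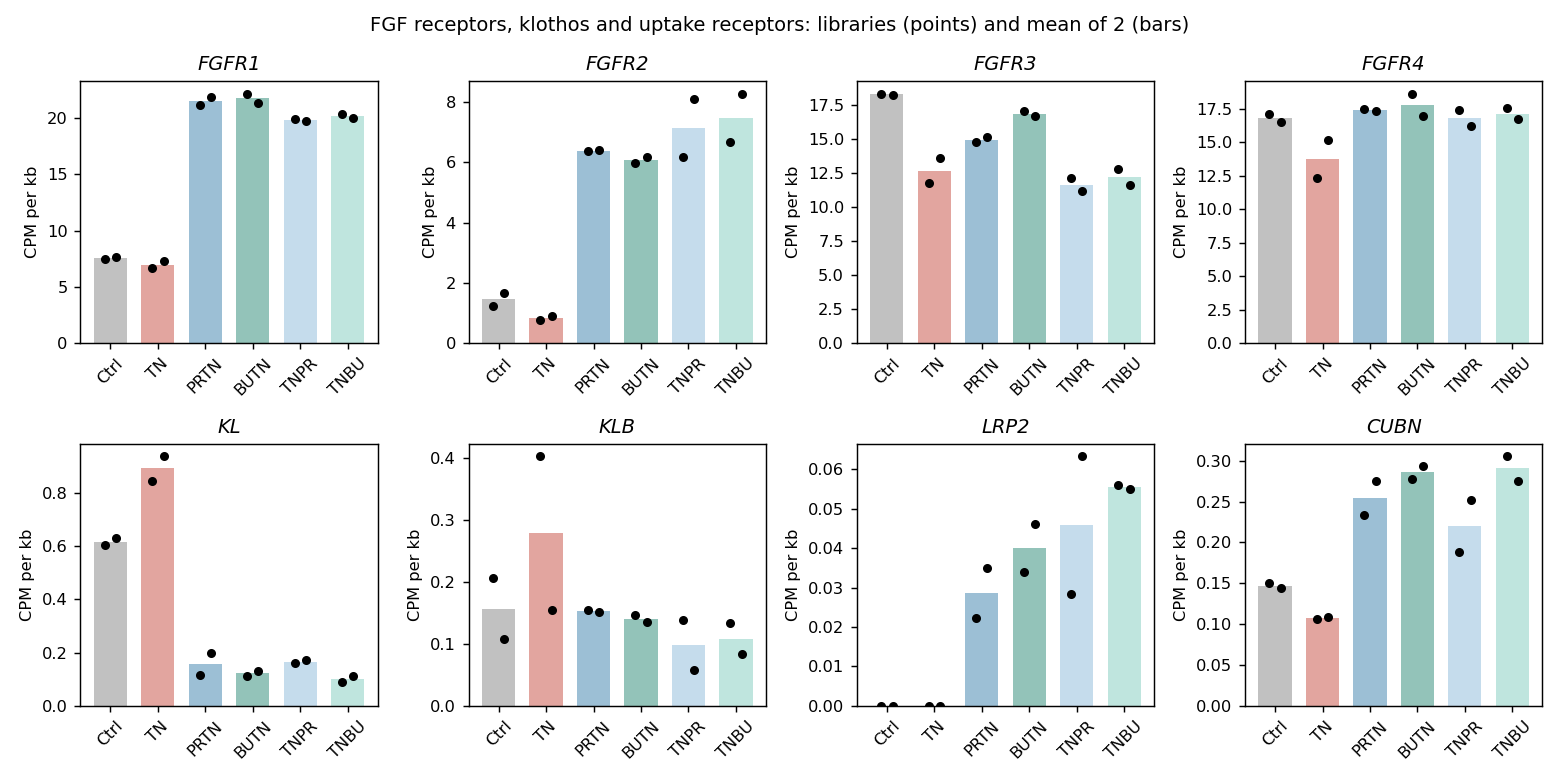
Level per kilobase of transcript (CPM per kb, linear axes from 0) of the 4 FGF receptors, KL and KLB, and the uptake receptors LRP2 and CUBN, in each library (points) with the mean of 2 libraries (bars). FGFR1 and FGFR2 rise with SCFA while FGFR3 and FGFR4 were not called, KL falls, and LRP2 is at 0 in the 4 libraries of Ctrl and TN.

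Further along the pathway, a pair of feedback genes of FGF receptor signalling rose in all 4 contrasts. SPRY2 and EGR1, also tested on this list, were not among those called up in all 4 or down in all 4. DUSP6, a phosphatase of ERK, went from 16.3 ± 2.15 CPM in TN to 73.7 ± 3.28 CPM in TNBU and 101 ± 5.86 CPM in PRTN, and SPRY4, an inhibitor of the same cascade, from 3.51 ± 0.349 CPM to 8.04 ± 0.427 CPM in TNBU and 12.6 ± 1.2 CPM in PRTN (SD, n = 2). PTH1R, the receptor of parathyroid hormone, had 2 and 3 counts in TN and 53 to 84 in the SCFA libraries. By summed counts PTH1R was 21.0 times its TN level in PRTN (95% exact interval 8.77 to 65.8) and 28.7 times in TNBU (12 to 89.5), intervals that cover counting error only. GRB2, FGF19 and SLC34A3 were the other genes called up in all 4, where FGF19 was at 0 without SCFA and at 4 to 13 counts with it. FURIN, a protease that cleaves FGF23, fell by 0.87 to 1.08 on the log2 scale, and FAM20C and SLC20A1 were also called down in all 4. SLC34A1, the main phosphate transporter of the proximal tubule, had at most 3 counts in any library.

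Of the 3 proteases listed as sheddases of klotho, none was called in all 4 contrasts, and limma-voom gave 2 or 3 of them an unadjusted p under 0.05 in each, a limit that 59.5% to 61.8% of all tested genes passed. In BUTN none was called by limma-voom or edgeR and 1 by DESeq2. ADAM17 was called down in PRTN (-0.62), TNPR (-0.79) and TNBU (-0.75) and not in BUTN (-0.48). With library size alone as scaling, ADAM17 lost its calls in PRTN (-0.47) and TNBU (-0.56), and it also lost them without the first PRTN library and without the second TNBU library. BACE1 was called up in the same 3 groups (0.80, 0.83 and 0.73) and not in BUTN (0.57), where its change lay next to the fold threshold and was called in 3 of 21 other settings (0.72 with library size alone, and 0.59 in DESeq2 and with relative log expression factors). ADAM10 was at -0.18 to -0.024.

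**Figure D5:**
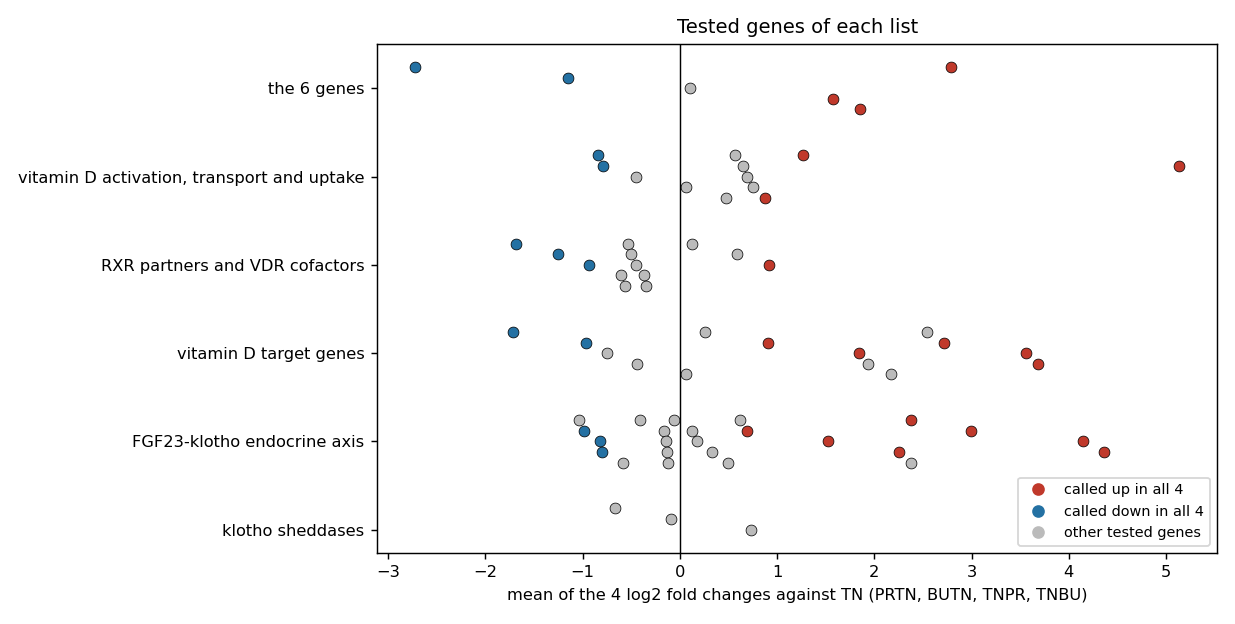
Mean of the 4 log2 fold changes against TN (horizontal axis) of each tested gene, for the 6 genes and 5 lists around them (rows, with points spread vertically for clarity). Red genes were called up in all 4 contrasts, blue ones down in all 4, and the fitted values of genes at 0 in TN, such as LRP2 at the far right of its row, depend on the prior count and are no measure of size.

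The genes whose log2 CPM was most like that of each gene over the 12 libraries were named by Pearson's r. The libraries fall into a set with SCFA and a set without, so for each gene except RXRA r mainly reflects the gap between these sets. The levels of RXRA interleaved between the sets. No p is given for any r. For CYP24A1 they were PLAT, TGM2 and SYT7 (r of 0.997 to 0.998), for VDR KIF21B, OSBPL6 and IER3 (0.989 to 0.997), and for FGFR1 ESAM, FBLN2 and TLE2 (0.999). For KL they were LSM5, RDH11 and ABCF2 (0.986 to 0.989), and for CYP27B1 VCAM1, PMM2 and WASF1 (0.967 to 0.975). For RXRA they were FGFR3, MYRF and LMNB2 (0.927 to 0.940), and FGFR3, like RXRA, was not called in any SCFA contrast with TN.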

How the data were processed

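Polyadenylated RNA of HK2 cells was sequenced in 12 libraries, 2 biological replicates per group, grouped by each library's label. Per the labels and the paper's methods, the authors made stranded polyadenylated RNA libraries, aligned the reads to GRCh38 with STAR (2.6.1a in the submitters' processing notes, with FastQC 0.11.5) and estimated counts per gene of GENCODE release 26 with RSEM, whose version and strand setting are not given in the sources used here. The deposited values are expected counts, not normalized or filtered, and 19.3% of them were not whole, since RSEM divides reads that match several genes.

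Expected counts were tested unrounded with limma 3.58.1 (voom) in R 4.3.3, with TMM factors from edgeR 4.0.16. A gene was kept if its geometric mean (taken after adding 1 to each count, with 1 then subtracted) reached 1, as 24342 genes did, and 1 model held the means of the 6 groups (prior degrees of freedom 6.12). Calls required more than a 1.5-fold change with an adjusted p under 0.05. Standard errors of log2 fold changes against TN had a median of 0.207 to 0.212. Where a gene was at 0, a floor of 3 counts per library was used, which, like the exact intervals, covers counting error only. Levels per kilobase used the canonical transcript of GENCODE release 44, which also gave the positions, and 57437 of the 58278 identifiers matched it. FGFR1's position is not reported here. Scripts were tested on simulated data.

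The 6 genes, the gene lists and the rule for named genes were chosen with earlier results of these data known. The rule named the 6 genes, their closest partners whatever they did, and in each list up to 4 genes with the largest mean change among those called in all 4 contrasts with TN at 1 CPM or more, and the 3 genes most like each of the 6. Other genes were named after their values were seen. The alternatives were edgeR and DESeq2 1.42.0 on rounded counts, relative log expression factors, library size alone, 3 other filters, only the groups compared, the replicate block, leaving out each library, a fold of 2, and, added after seeing the data, the length of all annotated exons.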

Additional observations from a re-analysis of the deposited data

How the results depend on the processing

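Under all alternatives run, 5 of the 6 genes were called in each SCFA contrast with TN and 0 in the timing contrasts, and 4 or 5 in each SCFA contrast with Ctrl, where CYP27B1 was the gene that lost its call. In TN against Ctrl the 1 call became 2 in DESeq2, where VDR was added, and 0 in the fit of only the groups compared or at a fold of 2. Same-numbered libraries did not pair, since their deviations correlated from -0.0458 to 0.109 over 15 pairs of groups with 1 over 0.1. With the replicate block 5 of the 6 genes were called in each SCFA contrast with TN, as without it. Of 1512 values of the 6 genes under the alternatives, 14 lost a call, 13 of them CYP27B1 against Ctrl, and 18 changed sign, all of uncalled values.

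Library size alone raised the median log2 change of all genes in PRTN against TN from 0.086 to 0.24, and the share of upward calls from 58.9% to 68.5% in PRTN, from 60.2% to 72% in TNBU, from 60.9% to 71.2% in BUTN and from 59.6% to 69.8% in TNPR, and lowered it from 58.9% to 44.3% in TN against Ctrl. In that scaling RXRA in TNPR turned to 0.081, FGFR3 to 0.056 in TNPR and 0.14 in TNBU, and ADAM10 to 0.13 in PRTN, 0.15 in TNPR and 0.071 in TNBU, against TN. Without the filter RXRA in TNBU was at -0.00086. The cause was not tested.

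Leaving out 1 library at a time, the log2 change ran from -0.092 to 0.11 for RXRA and -0.17 to 0.040 for FGFR3 in TNBU against TN, and from -0.035 to 0.12 for RXRA in BUTN against Ctrl. It ran from -0.27 to 0.51 for KL and -0.049 to 0.14 for CYP24A1 in TNPR against PRTN, and from -0.43 to 0.16 for CYP27B1 in TNBU against BUTN. The difference of the timing effects ran from -0.011 to 0.77 for KL, -0.060 to 0.53 for CYP27B1, -0.44 to 0.062 for VDR, -0.031 to 0.14 for RXRA and -0.055 to 0.016 for FGFR1. The order of the genes by level was the same with all annotated exons. With 2 libraries per group, small changes of genes as low as KL and CYP27B1 were not detectable.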
